A study of Mus musculus with 8 samples.

Results

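Chemokines and chemokine receptors were examined in whole lungs of mice at postnatal day 21. The members were all genes with a single annotated symbol that begins with Ccl, Cxcl, Cx3cl, Xcl, Ccr, Cxcr, Cx3cr or Xcr followed by a digit, which gave 52 of the 19937 genes measured, 34 ligands and 18 receptors. The 8 mice were untreated and fell into a group of 4 with a stabilized form of beta-catenin and a group of 4 in which beta-catenin was knocked out. The labels record every mouse as male and number the mice of each group 1 to 4 as biological replicates. The promoter that drives recombination, the altered exons and the cells that carried the alleles are items the sources used here do not give, and lungs with unmodified beta-catenin were not analysed here. A difference is therefore between the altered states, with no reference level for either.

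Chemokines are small secreted proteins, or in the case of Cx3cl1 and Cxcl16 membrane-tethered ones, that guide leukocytes along concentration gradients through G protein-coupled receptors. Homeostatic chemokines place lymphocytes and dendritic cells in lymphoid tissue, whereas inflammatory chemokines are induced in epithelium, endothelium and macrophages and draw neutrophils, monocytes and effector lymphocytes into tissue. Several ligands share a receptor and several receptors share a ligand. In the lung, epithelial cells supply a few of them constitutively, among them Cxcl15 and Cxcl14, while the receptor transcripts come mostly from resident and circulating leukocytes.

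The arrays gave log2 expression values per probe set after RMA, a method that corrects background, equalises the distributions of the arrays and summarises the probes of a set. Array medians lay between 5.97 and 6.03, and each gene is given by its brightest probe set. Whether a gene changed was read from limma fitted to all genes, and a gene was called when its p, adjusted by Benjamini-Hochberg across the whole table, was under 0.05. Values of single arrays are listed in the order of the replicate numbers, errors of differences are standard errors (SE), and n = 4 per group. Of the arrays, 4 went against the recorded sex. Xist lay between 10.36 and 10.59 in 4 arrays (stabilized 1 and 4, knockout 1 and 3), and the remaining arrays had 4.18 to 4.62. Y-linked transcripts showed the opposite pattern, at 3.08 to 4.00 where Xist was high and 6.71 to 8.35 elsewhere. Each group held 2 arrays of either kind. The values from the 4 arrays without Xist, 2 per group, are therefore given beside each called member below, and beside some of the others. The deviations of same-numbered arrays did not go together, and the numbers were not used as pairs.

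Of the 52 members, 8 rose and 11 fell in stabilized lungs and 33 did not pass the test (limma adjusted p under 0.05). The share of members called was 36.5%, against 9.62% of all genes, and in each direction 4.65% of all genes were called higher and 4.96% lower. Receptors were called more often than ligands in this set, with 9 not called of 18 receptors and 24 not called of 34 ligands. The difference between these shares was not tested. The groups did not overlap in 7 members that were higher and 10 that were lower in stabilized lungs, whereas 9.06% of all genes were separated upward, 7.82% downward and 16.9% in either direction. The median difference of the members was -0.08 on the log2 scale and that of all genes -0.01. Of the 8 members that rose, 7 belong to neutrophil or monocyte attraction, groups of 7 and 11 members. Of the 11 that fell, 7 belong to lymphoid homing or effector T and NK cell attraction, groups of 8 and 11 members. These roles were assigned from textbook functions, but with earlier results of these data known, and the split by role was not tested.

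**Figure D1:**
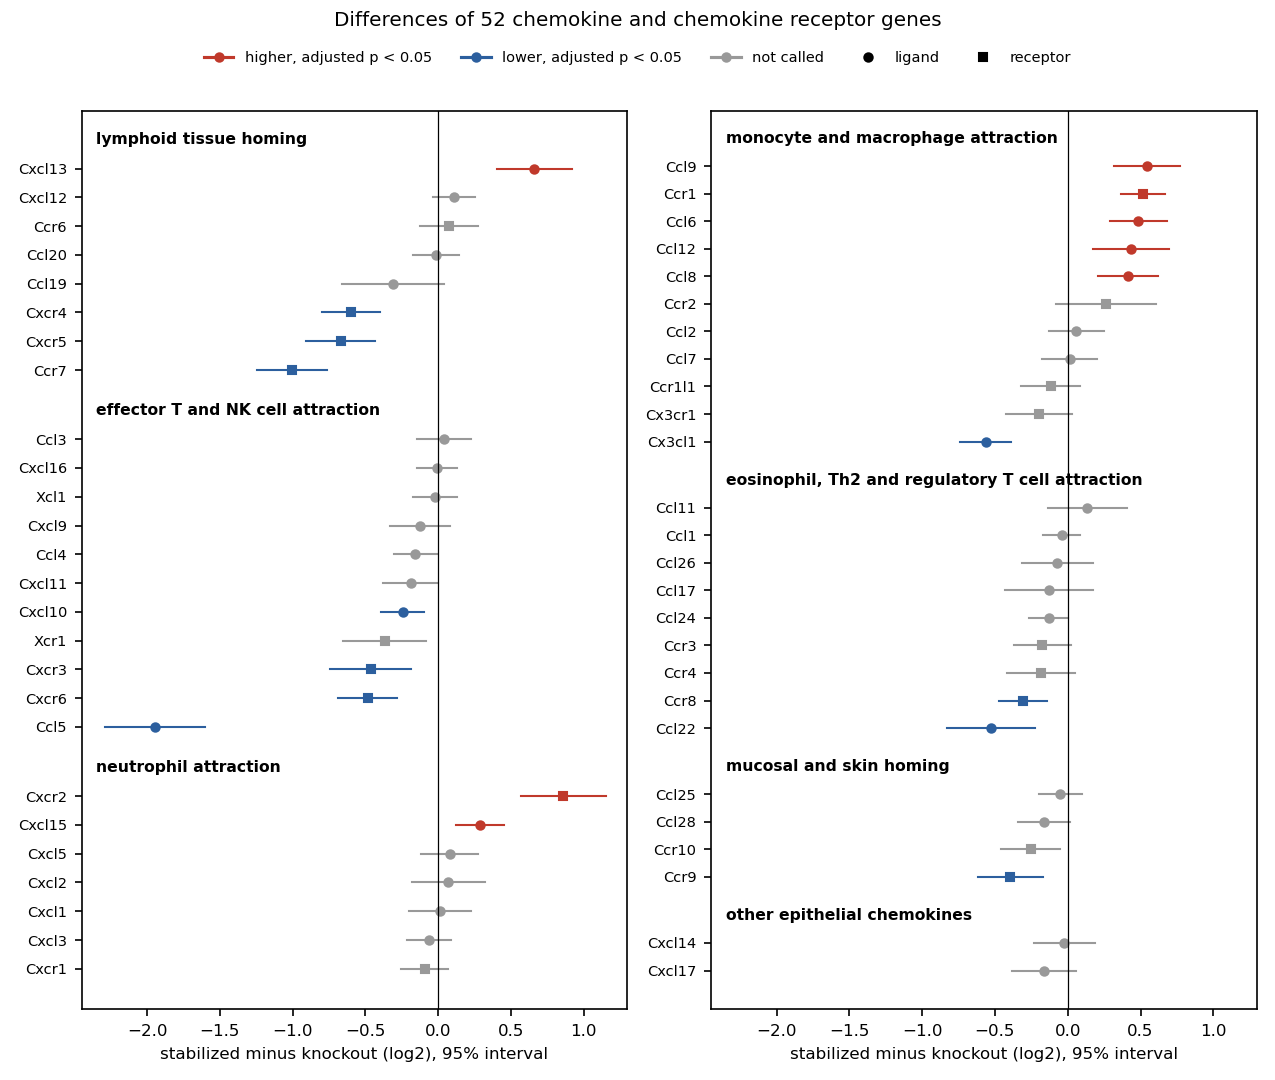
Difference between stabilized and knockout lungs for each of the 52 members on the log2 scale, with limma's 95% interval for each gene taken alone (4 arrays per group), ordered within role groups. Circles are ligands, squares receptors, red members called higher, blue members called lower and grey members not called. Ccl5 lies far to the left at -1.95, the lymphoid receptors Ccr7, Cxcr5 and Cxcr4 lie below zero and 5 of the 11 monocyte genes are called higher.

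With the 4 arrays that carried Xist left out, 6 members passed, namely Cxcl13, Cxcr2 and Ccr1 as higher and Ccl5, Ccr7 and Cx3cl1 as lower, while 1.78% of all genes were called. In that smaller comparison all 19 called members kept the sign of their difference. For all but Cxcr3, Ccl12, Ccl22 and Ccr9 the groups did not overlap, so a part of the same arrays could not change the sign. With 1 array left out at a time, 13 to 17 members were called, 12 of the 19 kept their call in every such fit and 7 lost it in at least 1. Of members called lower, 7 instead of 11 passed without stabilized replicate 1 or 2 and without knockout replicate 1, 2 or 3.

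Among 4 receptors of lymphoid tissue homing 3 fell, while of their 4 ligands 1 rose and 3 did not pass. Ccr7, the receptor that brings naive T cells and dendritic cells to lymph nodes, had a log2 expression of 6.11, 5.996, 6.23 and 6.31 in stabilized lungs and 7.32, 7.35, 7.17 and 6.83 in knockout lungs. All stabilized arrays lay below all knockout arrays, and the difference was 2.01-fold (-1.005 ± 0.11, SE, limma adjusted p = 1.3e-04). In the 4 arrays without Xist the difference was -0.97 (limma adjusted p = 0.026).

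Cxcr5, which leads B cells and follicular helper T cells into follicles, lay at 3.87, 4.02, 3.88 and 4.16 in stabilized and 4.73, 4.85, 4.72 and 4.32 in knockout lungs. Here too the groups did not overlap, with a difference of -0.67 ± 0.11 (SE, limma adjusted p = 0.0020). The gene is dim, its mean over the 8 arrays being at the 16.7th percentile of all genes, and RMA values near the background understate fold changes. Cxcr4, the Cxcl12 receptor carried by most leukocytes and also by endothelium, was bright in every array, at 9.49, 9.44, 9.22 and 9.27 in stabilized and 10.07, 10.12, 9.82 and 9.81 in knockout lungs. The knockout arrays were all higher, by 0.60 ± 0.09 (SE, limma adjusted p = 0.0014). Without the Xist-positive arrays Cxcr5 differed by -0.63 and Cxcr4 by -0.63 as well, with adjusted p of 0.12 and 0.065.

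The ligand of Cxcr5, the B cell attractant Cxcl13, moved the opposite way. It lay at 5.96, 6.20, 6.32 and 5.75 in stabilized and 5.53, 5.32, 5.53 and 5.20 in knockout lungs. Every stabilized array was above every knockout array, a 1.58-fold difference (0.66 ± 0.12, SE, limma adjusted p = 0.0039). The 4 arrays without Xist gave 0.997 (limma adjusted p = 0.0037), the values of stabilized replicates 2 and 3 being the highest of their group.

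The Cxcl13 promoter is shown because Cxcl13 and its receptor were called in opposite directions. The 250 bases before the annotated gene start come from RefSeq (GRCm38.p6, chr5:95956689-95956938, + strand), and the capitals mark a match to the NF-kB motif GGGANNNNCC.
Cxcl13: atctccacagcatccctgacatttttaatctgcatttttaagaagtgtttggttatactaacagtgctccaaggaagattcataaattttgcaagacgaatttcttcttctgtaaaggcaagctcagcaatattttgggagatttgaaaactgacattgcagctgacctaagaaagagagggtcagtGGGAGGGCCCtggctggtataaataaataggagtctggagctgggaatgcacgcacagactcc

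Ccl19, a ligand of Ccr7 made by stromal cells and mature dendritic cells, did not pass. It lay at 7.86, 7.58, 7.90 and 7.84 in stabilized and 7.54, 8.08, 8.38 and 8.42 in knockout lungs, so the groups overlapped through knockout replicate 1, which was the lowest array of all. The difference was -0.31 ± 0.16 (SE, limma adjusted p = 0.26), and it was called at -0.50 when knockout replicate 1 was left out (limma adjusted p = 0.012). It was -0.51 in the arrays without Xist (limma adjusted p = 0.17). Ccl19 is represented by 4 probe sets, which disagreed, with differences of -0.31 for the brightest, -0.20 and -0.37 for the following ones and 0.75 for the dimmest, which lay at 4.59 to 5.22 in stabilized and 3.52 to 4.48 in knockout lungs. Taking the mean of the probe sets moved the difference to -0.03. Ccl21a, the other Ccr7 ligand, is covered by a probe set annotated to several genes and was left out.

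Cxcl12, the stromal ligand of Cxcr4, lay between 9.19 and 9.41 in stabilized and between 9.13 and 9.28 in knockout lungs and differed by 0.11 ± 0.07 (SE, limma adjusted p = 0.34), and by 0.02 in the arrays without Xist. Ccl20 and its receptor Ccr6, which attract dendritic cells and Th17 cells to mucosa, differed by -0.02 and 0.08. Their 95% intervals ran from -0.17 to 0.14 and from -0.13 to 0.28.

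**Figure D2:**
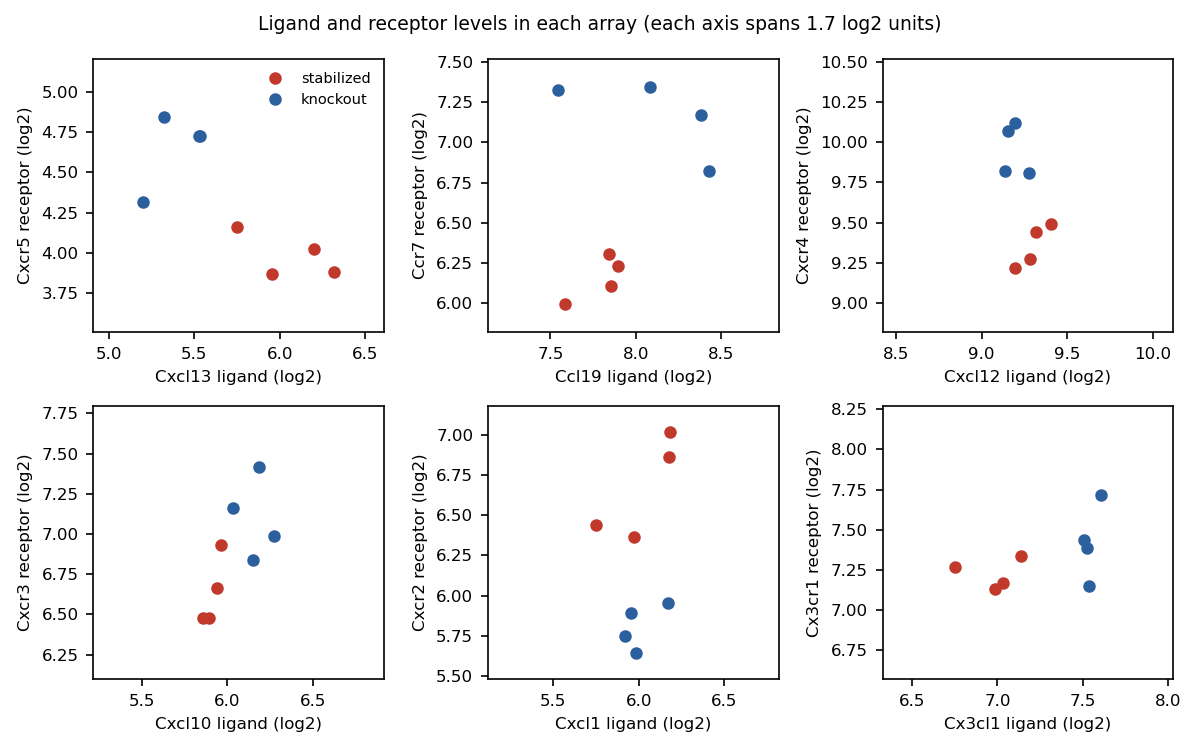
Level of a ligand (horizontal) and of its receptor (vertical) in each of the 8 arrays, as log2 expression, for 6 ligand and receptor pairs, with stabilized arrays in red and knockout arrays in blue. In the Cxcl13 and Cxcr5 panel the groups sit at opposite corners, in the Ccl19 and Ccr7, Cxcl12 and Cxcr4 and Cxcl1 and Cxcr2 panels they separate only along the receptor axis, and in the Cx3cl1 and Cx3cr1 panel only along the ligand axis.

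Genes of effector T cell and NK cell attraction were lower in stabilized lungs where they passed. Its 11 measured genes held 4 that fell and 7 that did not pass, and 10 of the 11 differences were negative with a median of -0.19. Ccl5, released by activated T cells and NK cells and bound by Ccr1 and Ccr3 among others, showed the largest difference of all members. Its level was 7.70, 7.56, 8.20 and 7.98 in stabilized and 9.71, 9.84, 10.22 and 9.48 in knockout lungs. The highest stabilized array was still more than a log2 unit below the lowest knockout array. The difference was 3.86-fold (-1.95 ± 0.16, SE, limma adjusted p = 1.3e-05), and -1.77 in the arrays without Xist (limma adjusted p = 0.0041).

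Cxcr6, the receptor of Cxcl16 on tissue-resident T cells and innate lymphocytes, was at 5.02, 5.04, 5.06 and 4.62 in stabilized and 5.43, 5.42, 5.38 and 5.45 in knockout lungs. The knockout arrays were tightly grouped above all stabilized arrays, and the difference was -0.48 ± 0.09 (SE, limma adjusted p = 0.0054; -0.39 with adjusted p = 0.12 without the Xist-positive arrays). Its ligand Cxcl16 differed by -0.01 ± 0.06 (SE), with a 95% interval from -0.14 to 0.13.

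Cxcr3, the receptor of the interferon-induced chemokines Cxcl9, Cxcl10 and Cxcl11 on Th1, CD8 and NK cells, lay at 6.48, 6.48, 6.93 and 6.67 in stabilized and 7.42, 6.99, 7.16 and 6.84 in knockout lungs. The groups overlapped at stabilized replicate 3 and knockout replicate 4. The difference was -0.46 ± 0.13 (SE, limma adjusted p = 0.039). This call was lost in 6 of the 8 fits with an array left out and after centring each array on its median, and the difference was -0.21 without the Xist-positive arrays (limma adjusted p = 0.58).

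Cxcl10 fell by a small amount, from 6.19, 6.27, 6.03 and 6.15 in knockout to 5.89, 5.86, 5.97 and 5.94 in stabilized lungs. The groups did not overlap, but the difference of -0.24 ± 0.07 (SE, limma adjusted p = 0.039) lost its call in 7 of the 8 fits with an array left out and in 4 of the 7 other processing settings. It was -0.30 without the Xist-positive arrays (limma adjusted p = 0.27). Its Cxcr3 partners Cxcl9 and Cxcl11 differed by -0.13 ± 0.09 and -0.19 ± 0.09 (SE), with limma adjusted p of 0.44 and 0.21. Ccl3 and Ccl4, macrophage inflammatory proteins that many leukocytes make, differed by 0.04 and -0.16, and the NK and CD8 cell product Xcl1 by -0.02. Xcr1, the receptor of Xcl1 on cross-presenting dendritic cells, differed by -0.37 ± 0.13 (SE, limma adjusted p = 0.0998), and by -0.52 without knockout replicate 4, when it passed (limma adjusted p = 0.0024).

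Cxcl10 is shown because it is a called interferon-inducible ligand of this group, and its promoter holds matches of more than 1 motif. The 250 bases before its gene start (RefSeq, GRCm38.p6, chr5:92348890-92349139, - strand) carry a match to the interferon response motif GAAANNGAAA, the first run of capitals, and 2 matches to the NF-kB motif, the later runs.
Cxcl10: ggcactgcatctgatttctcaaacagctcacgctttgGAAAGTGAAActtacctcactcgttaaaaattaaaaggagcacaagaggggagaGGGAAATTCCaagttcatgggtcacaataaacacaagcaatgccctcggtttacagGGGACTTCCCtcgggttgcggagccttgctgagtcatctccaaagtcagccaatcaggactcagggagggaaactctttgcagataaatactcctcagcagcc

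The called receptors of lymphoid homing and of effector T and NK cells, and Ccl5, fell beside markers of lymphocytes. Ccr6, Ccr4, Xcl1 and Ccl4 did not pass. Of 20 markers of T and NK cells other than members, 15 fell and 0 rose (75% called, against 9.62% of all genes). Among them Klrd1 and Cd8a fell by 1.23 and 1.59 on the log2 scale. The mean level of the list lay between 5.61 and 5.87 in stabilized and between 6.21 and 6.88 in knockout arrays. The log2 of its summed unlogged levels lay between 10.24 and 10.52 and between 10.88 and 11.74. Of 15 markers of B and plasma cells 14 fell and 0 rose (93.3% called), with mean levels of 5.41 to 5.53 and 6.22 to 6.55. Of 11 dendritic cell markers 5 fell and 0 rose (45.5% called), with mean levels of 6.97 to 7.12 and 7.18 to 7.52. In whole tissue, fewer cells of a type and less RNA per cell cannot be told apart, and the part of these markers in the fall of the receptors and of Ccl5 was not tested.

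**Figure D3:**
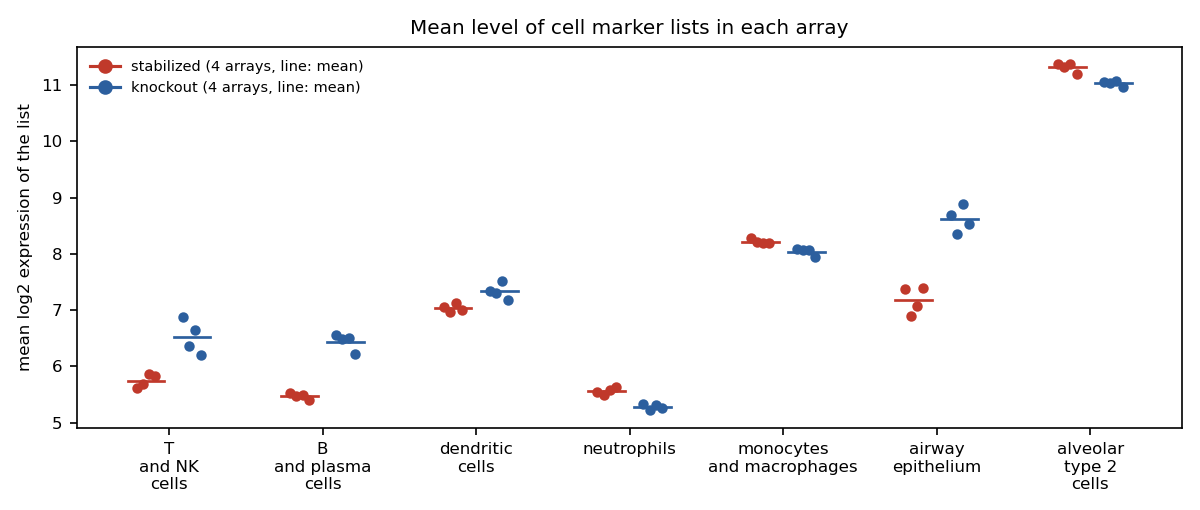
Mean log2 expression of marker lists of 7 lung cell types in each array, with stabilized arrays in red, knockout arrays in blue and lines at the group means (4 arrays each). The T and NK cell list lies at 5.61 to 5.87 in stabilized and 6.21 to 6.88 in knockout arrays, and the neutrophil list at 5.50 to 5.64 and 5.22 to 5.33.

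Among genes of neutrophil attraction, the receptor Cxcr2 and the lung chemokine Cxcl15 rose and the inducible ligands of Cxcr2 did not pass. The other 5 of its 7 measured genes did not pass. Cxcr2, through which neutrophils follow ligands of the Cxcl1 type, lay at 6.36, 6.44, 7.02 and 6.86 in stabilized and 5.89, 5.65, 5.75 and 5.96 in knockout lungs. Stabilized replicates 3 and 4 were the highest, and no stabilized array reached down to the knockout arrays. The difference was 1.82-fold (0.86 ± 0.13, SE, limma adjusted p = 0.0015), the largest rise among members, and 0.93 in the arrays without Xist (limma adjusted p = 0.047). Cxcr1, the neighbouring receptor gene, differed by -0.09 ± 0.07 (SE), with a 95% interval from -0.25 to 0.07.

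Cxcl15, also known as lungkine and made by lung epithelium, was among the brightest genes on the arrays, at the 99.9th percentile of all genes. It lay at 12.29, 12.30, 12.10 and 12.05 in stabilized and 11.81, 11.96, 11.93 and 11.90 in knockout lungs, without overlap and with a narrow spread. The difference was 0.29 ± 0.07 (SE, limma adjusted p = 0.031), and the call was lost in 6 of the 8 fits with an array left out. Without the Xist-positive arrays it was 0.27 (limma adjusted p = 0.34). Array maxima were 13.35 to 13.67.

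The inducible ligands Cxcl1, Cxcl2, Cxcl3 and Cxcl5 differed by 0.01, 0.07, -0.06 and 0.08, with limma adjusted p of 0.96, 0.76, 0.628 and 0.64. Cxcl1 lay between 5.75 and 6.18 in stabilized and between 5.92 and 6.17 in knockout lungs. Cxcl2 and Cxcl5 were dim, with Cxcl2 at the 14.5th percentile of all genes and Cxcl5 below it. Their 95% intervals ran from -0.18 to 0.32 for Cxcl2 and from -0.12 to 0.28 for Cxcl5.

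The promoters of the epithelial ligand that rose and of inducible ligands of the same gene cluster that did not pass are shown for comparison, as the 250 bases before each gene start on the + strand (RefSeq, GRCm38.p6, chr5:90794284-90794533 for Cxcl15, chr5:90890995-90891244 for Cxcl1 and chr5:90903649-90903898 for Cxcl2). Capitals mark matches to the NF-kB motif in Cxcl1 and Cxcl2 and to the TCF/LEF motif, CTTTGAT or CTTTGAA, in Cxcl15.
Cxcl15: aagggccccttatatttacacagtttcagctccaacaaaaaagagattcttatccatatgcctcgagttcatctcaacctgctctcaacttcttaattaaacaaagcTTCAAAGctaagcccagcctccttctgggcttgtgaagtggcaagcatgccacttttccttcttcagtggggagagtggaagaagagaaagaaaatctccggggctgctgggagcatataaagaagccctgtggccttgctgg
Cxcl1: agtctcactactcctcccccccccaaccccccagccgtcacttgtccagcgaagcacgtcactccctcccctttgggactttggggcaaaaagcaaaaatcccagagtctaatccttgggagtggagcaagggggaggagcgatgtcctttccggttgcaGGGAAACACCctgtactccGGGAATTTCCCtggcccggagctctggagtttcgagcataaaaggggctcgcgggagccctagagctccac
Cxcl2: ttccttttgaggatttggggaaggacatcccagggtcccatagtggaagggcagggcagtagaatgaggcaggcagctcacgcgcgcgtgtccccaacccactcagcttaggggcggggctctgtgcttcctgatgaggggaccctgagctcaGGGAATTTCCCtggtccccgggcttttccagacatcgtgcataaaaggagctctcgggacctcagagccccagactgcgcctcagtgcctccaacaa

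Cxcl1, Cxcl2 and Cxcl3 each held the NF-kB match GGGAATTTCC within 100 bases of the gene start, and Cxcl15 held none in this window. Promoters of 38 members were in the RefSeq table. On both strands of these windows the NF-kB motif occurred in 16 of the 38 members (42.1%) and in 19.7% of 27025 genes in the table, and in 6 of the 16 called members (37.5%). The TCF/LEF motif occurred in 7 members (18.4%) and in 8.63% of genes. Of the 16 called members 2 held it (12.5%), Cxcl15 and Ccl8, and the other members that held it were not called. The interferon response motif was found in 3 members, or 7.89%, and 3.46% of genes, and the gamma-interferon activated motif TTCNNNGAA in 4 members, or 10.5%, and 8.13% of genes. A symmetrical NF-kB site matches on either strand and was counted once per gene, and a TCF/LEF match in each of Ccl17 and Ccr6 overlaps a match to TTCNNNGAA, while the other TCF/LEF match of Ccl17 does not. A match is a description of letters and not a binding site.

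Markers of neutrophils were mixed beside Cxcr2. Of 14 such markers 6 rose, 1 fell and 7 did not pass (50% called, against 9.62% of all genes). Il1b and Mmp8 were higher by 1.16 and 0.83, whereas the granule protein gene Ltf, which epithelium also makes, fell by 0.89. Of the 14 differences, 10 were positive and 4 negative. Those of Ly6g, Camp and Elane were negative without passing. The mean level of the list was 5.50 to 5.64 in stabilized and 5.22 to 5.33 in knockout arrays. Of 10 alveolar type 2 cell markers 7 rose and 0 fell beside Cxcl15 (70% called), with mean levels of 11.20 to 11.37 and 10.96 to 11.07. Whether these markers account for either gene was not tested.

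Monocyte and macrophage chemokines formed the group with the most calls. Its 11 measured genes held 5 that rose, 1 that fell and 5 that did not pass, with a median difference of 0.26. Ccl6, a rodent chemokine that macrophages and other myeloid cells make, lay at 10.23, 10.44, 10.27 and 10.13 in stabilized and 9.83, 9.95, 9.79 and 9.57 in knockout lungs. Ccl9, its close relative and also a ligand of Ccr1, lay at 7.54, 7.43, 7.91 and 7.47 in stabilized and 7.10, 7.15, 7.05 and 6.87 in knockout lungs. For each the stabilized arrays were all higher, by 0.48 ± 0.09 for Ccl6 and 0.55 ± 0.10 for Ccl9 (SE, limma adjusted p = 0.0050 and 0.0054). The arrays without Xist gave 0.60 and 0.66, with adjusted p of 0.088 and 0.11.

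Ccr1, a receptor of monocytes and neutrophils that binds Ccl6 and Ccl9 among others, rose with them. It lay at 4.74, 4.89, 4.86 and 4.83 in stabilized and 4.24, 4.20, 4.43 and 4.38 in knockout lungs, without overlap. The difference was 0.52 ± 0.07 (SE, limma adjusted p = 6.1e-04) and 0.58 in the arrays without Xist (limma adjusted p = 0.037). The gene is dim, at the 19.9th percentile.

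Ccl8 and Ccl12, monocyte chemoattractants of the Ccl2 family, rose at low levels. Ccl8, which in the mouse acts mainly through Ccr8, lay at 4.28, 4.22, 4.38 and 4.41 in stabilized and 4.01, 4.12, 3.67 and 3.83 in knockout lungs, separate in every array (0.41 ± 0.09, SE, limma adjusted p = 0.016). Ccl12, a ligand of Ccr2, lay at 4.51, 4.37, 4.86 and 4.85 in stabilized and 3.97, 4.41, 4.19 and 4.28 in knockout lungs, overlapping through stabilized replicate 2 and knockout replicate 2. Its difference of 0.43 ± 0.12 (SE, limma adjusted p = 0.041) lost its call in 6 of the 8 fits with an array left out. Without the Xist-positive arrays the differences were 0.33 for Ccl8 and 0.27 for Ccl12, with adjusted p of 0.31 and 0.48.

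The main ligands of Ccr2, by contrast, did not pass. Ccl2, the principal monocyte attractant, lay between 4.91 and 5.26 in stabilized and between 4.98 and 5.14 in knockout lungs, a difference of 0.06 ± 0.09 (SE, limma adjusted p = 0.72). Ccl7 differed by 0.01 ± 0.09 (SE). Ccr2, which lets inflammatory monocytes leave the marrow, spanned 6.92 to 7.51 in stabilized and 6.80 to 7.51 in knockout lungs and differed by 0.26 ± 0.16 (SE, limma adjusted p = 0.34). The 95% interval of Ccr2 ran from -0.08 to 0.61, and the arrays without Xist gave 0.53 (limma adjusted p = 0.078).

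Cx3cl1, or fractalkine, was the member of this group that fell. This membrane-bound chemokine of epithelium and endothelium captures cells that carry Cx3cr1. It lay at 7.14, 6.75, 6.99 and 7.03 in stabilized and 7.60, 7.51, 7.53 and 7.53 in knockout lungs. The knockout arrays lay close together and above all stabilized arrays. The difference was 1.48-fold (-0.56 ± 0.08, SE, limma adjusted p = 8.5e-04), and -0.65 in the arrays without Xist (limma adjusted p = 0.029). Cx3cr1, its receptor on monocytes, macrophages and NK cells, differed by -0.20 ± 0.10 (SE, limma adjusted p = 0.27), with 7.13 to 7.34 in stabilized and 7.15 to 7.72 in knockout lungs.

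**Figure D4:**
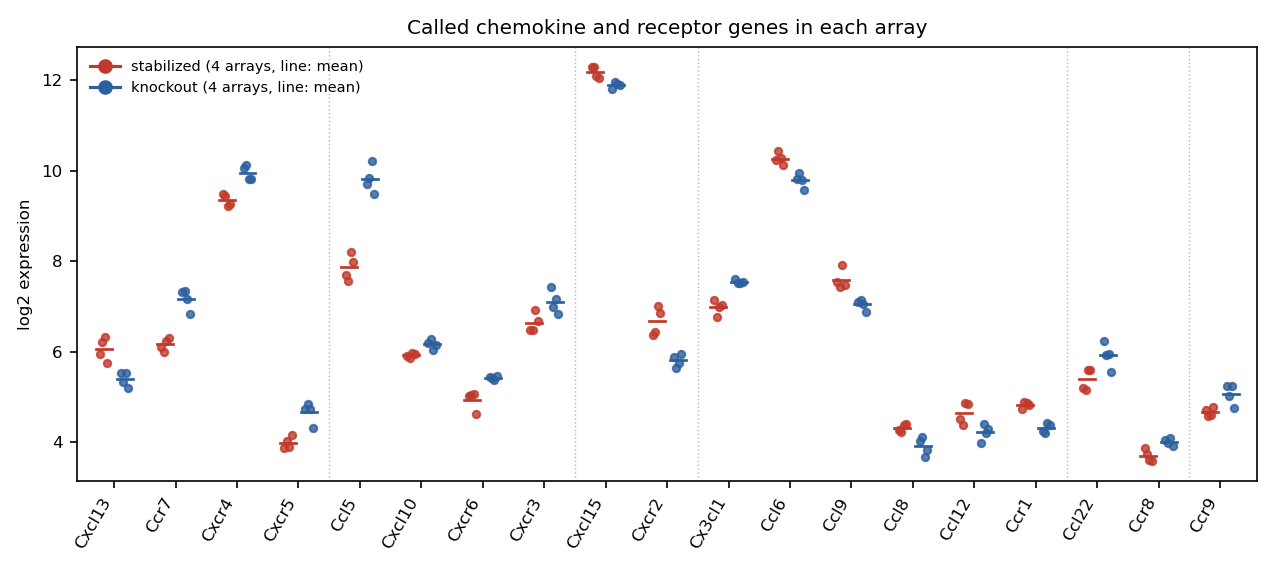
Log2 expression of the 19 called members in each array, with stabilized arrays in red, knockout arrays in blue, lines at the group means (4 arrays each) and dotted lines between role groups. Ccl5 shows the widest gap, at 7.56 to 8.20 in stabilized and 9.48 to 10.22 in knockout arrays, and Cxcl15 is the brightest member, at about 12 in every array.

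Markers of monocytes and macrophages were called only as higher, and most did not pass. Of 19 markers 5 rose, 0 fell and 14 did not pass (26.3% called, against 9.62% of all genes). Of the 19 differences, 16 were positive. Fn1, which fibroblasts also make, and the complement gene C1qa were higher by 0.61 and 0.59. The mean level of the list was 8.19 to 8.29 in stabilized and 7.95 to 8.08 in knockout arrays. Airway epithelial markers moved the way Cx3cl1 did, with 9 of 10 called lower (90%) and 0 higher. Their mean levels were 6.90 to 7.40 in stabilized and 8.35 to 8.89 in knockout arrays. The part of both marker lists in these results was not tested.

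Genes assigned to eosinophil, Th2 and regulatory T cell attraction were called only as lower. Among 9 such genes, 2 fell (22.2%, against 9.62% of all genes called) and 7 did not pass. Of the 9 differences, 8 were negative. Ccl22, which dendritic cells make and which binds Ccr4, lay at 5.20, 5.16, 5.59 and 5.60 in stabilized and 6.22, 5.93, 5.95 and 5.56 in knockout lungs, where knockout replicate 4 fell among the stabilized arrays. The difference was -0.53 ± 0.14 (SE, limma adjusted p = 0.033), a call lost in 5 of the 8 fits with an array left out, with the replicate number as a block and after repeated quantile normalization. Ccr8, carried by Th2 and regulatory T cells, lay at 3.86, 3.75, 3.61 and 3.58 in stabilized and 4.05, 3.97, 4.08 and 3.92 in knockout lungs, without overlap but near the bottom of the scale, at the 11.3th percentile. Its difference of -0.31 ± 0.08 (SE, limma adjusted p = 0.024) lost its call in 4 of the 8 fits with an array left out. Ccl8, a ligand of Ccr8 that rose, was assigned to the monocyte group. Ccl22 and Ccr8 differed by -0.36 and -0.27 without the Xist-positive arrays, with adjusted p of 0.39 and 0.32. The eotaxins Ccl11 and Ccl24 differed by 0.13 and -0.13 and their receptor Ccr3 by -0.18, with Ccl11 at 0.34 in the arrays without Xist (limma adjusted p = 0.40). The remaining members of the group, Ccl1, Ccl17, Ccl26 and Ccr4, differed by -0.04, -0.13, -0.07 and -0.19. Of 13 markers of eosinophils and mast cells 1 fell (7.69%, near the 9.62% of all genes) and 12 did not pass. Their mean levels were 4.66 to 4.72 in stabilized and 4.68 to 4.74 in knockout arrays.

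Of 4 mucosal homing genes, Ccr9 fell and 3 did not pass. Ccr9, which directs lymphocytes to the small intestine and is abundant in thymocytes, lay at 4.71, 4.57, 4.61 and 4.78 in stabilized and 5.24, 5.02, 5.23 and 4.76 in knockout lungs, overlapping at stabilized replicate 4 and knockout replicate 4. The difference of -0.40 ± 0.10 (SE, limma adjusted p = 0.030) lost its call in 6 of the 8 fits with an array left out and was -0.30 without the Xist-positive arrays (limma adjusted p = 0.32). Its ligand Ccl25 differed by -0.05 and the mucosal pair Ccl28 and Ccr10 by -0.16 and -0.26. Ccr10 passed without stabilized replicate 3 (limma adjusted p = 0.048). The epithelial chemokines Cxcl14 and Cxcl17 differed by -0.02 and -0.16, at mean levels of 9.63 and 7.17 on the log2 scale.

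Neighbouring chemokine genes were not called together throughout their clusters. In the gene order of the RefSeq table, 34 members lay in 9 clusters in which at most 3 other protein-coding genes separate neighbours. In the cluster of Ccl5, Ccl9, Ccl6, Ccl3 and Ccl4, Ccl5 fell, the adjacent Ccl9 and Ccl6 rose and Ccl3 and Ccl4 did not pass. In that of Ccl2, Ccl7, Ccl11, Ccl12, Ccl8 and Ccl1, the adjacent Ccl12 and Ccl8 rose and the other 4 did not pass. In the receptor cluster of Ccr9, Cxcr6, Xcr1, Ccr1, Ccr1l1, Ccr3 and Ccr2, the adjacent Ccr9 and Cxcr6 fell, Ccr1 rose and 4 did not pass. Ccl22 and Cx3cl1, which lie next to each other, both fell, while Ccl17 beside them differed by -0.13. Genes of these clusters arose by duplication and resemble each other, and how well the probes tell relatives such as Ccl6 and Ccl9 apart was not tested.

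**Figure D5:**
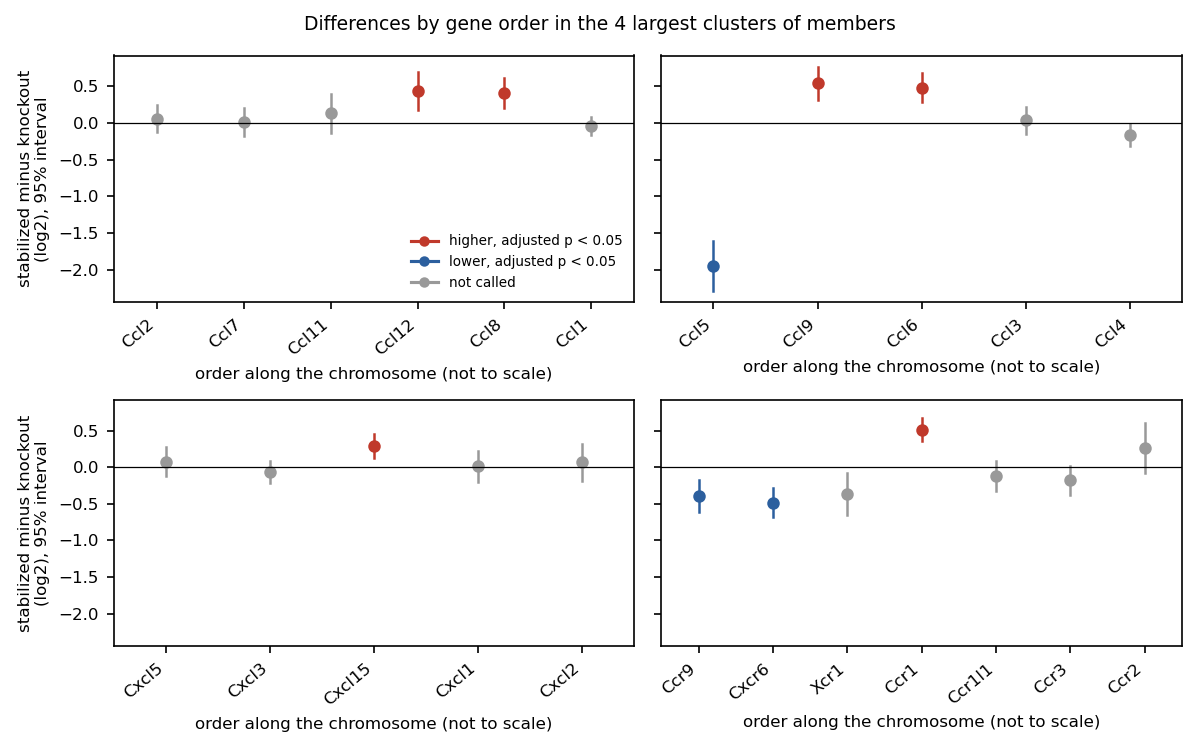
Difference between stabilized and knockout lungs (log2, with limma's 95% interval, 4 arrays per group) for members in their order along the chromosome, spaced evenly and not to scale, in the 4 clusters that hold at least 5 members. Red marks members called higher, blue lower and grey not called, so that the second panel shows Ccl5 at -1.95 beside Ccl9 and Ccl6 at 0.55 and 0.48.

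Other genes of the chemokine system were read from 4 further lists. Of 6 genes listed as atypical or scavenger receptors, 1 rose and 5 did not pass (16.7% called, against 9.62% of all genes). The 5 were Ackr1, Ackr2, Ackr4, Ccrl2 and Pitpnm3. Ackr3, an atypical receptor that scavenges Cxcl12 without G protein signalling, rose by 0.51 ± 0.08 (SE, limma adjusted p = 0.0013). Its levels were 6.51, 6.62, 6.53 and 6.51 in stabilized and 5.88, 6.22, 5.97 and 6.07 in knockout lungs, so that for the Cxcl12 receptors the signalling Cxcr4 fell and the scavenging Ackr3 rose. Of 6 attractants and related genes with other names, Rarres2, which encodes the chemoattractant chemerin, rose by 0.71 ± 0.09 (SE, limma adjusted p = 4.4e-04). The other 5, the receptor gene Cmklr1 among them, did not pass, so that 16.7% of this list was called.

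Of 22 genes of receptor signalling and migration, 1 rose, 3 fell and 18 did not pass (18.2% called, against 9.62% of all genes). The leukocyte Rac activators Dock2 and Elmo1 fell by 0.72 ± 0.12 and 0.33 ± 0.07, the GTPase Rac2 fell by 0.66 ± 0.15, and the inhibitory G protein subunit Gnai3 rose by 0.26 ± 0.07 (SE, n = 4 per group). Of 24 genes of lymphoid tissue organisation, 6 fell, 1 rose and 17 did not pass (29.2% called). Il7r, the interleukin-7 receptor of lymphocytes, and Ltb, the lymphotoxin chain that induces homeostatic chemokines, fell by 1.43 and 0.66, and Chst4, a sulfotransferase that makes ligands of L-selectin, fell by 0.55. Cd34, a sialomucin of endothelium and progenitors, rose by 0.32. Of 8 markers of lymphatic and venular endothelium, the site of lymphocyte entry and exit, 1 rose, 1 fell and 6 did not pass (25% called).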

How the data were processed

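Total RNA of 8 whole lungs was measured on Affymetrix arrays from biotin-labelled cRNA, per the labels. The deposited log2 values of 34760 probe sets were made by the authors with RMA and the affy package, per the submitters' processing notes; the sources used here give no versions, scan batches or genome build. Arrays have no read depth, and the 4 arrays per group limit the precision. Probe sets with 1 gene symbol in the platform annotation (21640) were kept; 1321 with several and 11799 with none were not used. Each gene was given by its brightest probe set, which left 19937 genes.

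All genes were fitted with limma 3.58.1 (R 4.3.3, lmFit and eBayes, no covariate, no filter). Differences are stabilized minus knockout with moderated standard errors, and group values are single arrays. The p-values set a difference against the spread between mice, moderated by that of all genes. Of the 12.2 degrees of freedom, 6.2 come from this moderation. The fit was tested on simulated data of 19937 genes. It recovered 84% of 100 genes changed by 0.5 and 99% of 100 changed by 1 on the log2 scale. It called 15 unchanged genes. The simulated data held 200 changed genes and normal errors, whereas 1917 genes were called in the measured data. These rates need not hold there. Figures and promoter matches used Python 3.11.15. Members, gene lists, roles and motifs were chosen with earlier results of these data known. The rule for named genes took every called member and 21 listed ones (29 measured in all, Ccl21a having no probe set of its own), up to 4 called genes of smallest p per pathway list and up to 2 per cell marker list. Other members are given by their difference. Xcr1, Ccr10, Ccl11, the ligand of Cxcr6 and the markers Ltf, Ly6g, Camp and Elane were singled out after their values were seen. The alternatives were 8 fits with 1 array left out, a replicate block, array centring, repeated quantile normalization, probe set means, a filter on dim genes, an intensity trend and Xist as a covariate, and, added after seeing the data, a fit without the 4 arrays that carried Xist.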

Additional observations from a re-analysis of the deposited data

Results flagged for a closer look

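Among 58 checks of named members for an array far from the others of its group, 2 stood out, and chance flags about 5% of such checks. Ccl19 was at 7.58 in stabilized replicate 2, with the nearest array of the group at 7.84. Cxcr6 was at 4.62 in stabilized replicate 4, with the nearest at 5.02. Leaving that array out kept the call of Cxcr6.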

How the results depend on the processing

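Of the 19 called members, 12 kept their call and direction in every setting that tested them other than the comparison without the 4 arrays with Xist, and Cxcl10, Cxcr3, Cxcl15, Ccl12, Ccl22, Ccr8 and Ccr9 lost it in at least 1 fit with an array left out. With 1 array left out, 1216 to 1839 genes and 13 to 17 members were called, 6 to 7 members higher and 7 to 11 lower, with 1216 genes without stabilized replicate 1 and 1235 without knockout replicate 3. Leaving out genes under a mean of 6 removed 31 of 52 members and called 10 of the other 21, 4 higher and 6 lower. Without the 4 arrays with Xist, 354 genes and 6 members were called, 3 higher and 3 lower, on 2 arrays per group. The differences of Cxcl5, Cxcl2 and Cxcl1 then turned to -0.058, -0.074 and -0.109, none called. With 1 array left out the uncalled difference of Cxcl1 ranged from -0.042 to 0.101 and that of Ccl7 from -0.059 to 0.061.

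The replicate numbers did not pair the arrays: same-numbered deviations correlated at -0.005 to 0.084, and 2 of 8 arrays correlated best with their own number. With a replicate block 17 members were called, without Ccl22 and Cxcl10, and 1828 genes. Centring arrays on their medians shifted the median difference of all genes from -0.01 to 0.03 and raised the share of higher genes among those called from 48.4% to 64.4%, with 17 members called, 8 higher and 9 lower. The dim-gene filter gave 61.8%.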
